A study of Mus musculus with 32 samples.

Results

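The genes described here are a set of 44 genes of DNA replication and S phase, which copy the chromosomes once in each cell division, prepare the building blocks for the copy, or switch these genes on. They were chosen by name, with earlier results of these data known. Each was looked up under its current or older symbol. The probe set (the group of short DNA probes on the array that reports a transcript) with the highest mean signal stood for the gene. Of the 44 genes, 43 had a named probe set, among 18193 genes measured, and Chaf1a was not analysed here. RNA of the whole distal colon was measured on 32 Affymetrix arrays, and each mouse gave 1 array. All mice were C57 BL6NCr. Knockout (KO) mice, backcrossed to that strain, lacked Myd88, which carries signals of most Toll-like receptors and of the receptors for interleukin-1 and interleukin-18. The groups were 10 treated KO mice (Myd88-/-), 10 treated wild-type (WT) mice, 6 untreated KO mice and 6 untreated WT mice. Treated mice received 10 mg/kg azoxymethane (AOM), a colon carcinogen, by injection into the abdomen at 6 to 8 weeks of age. They drank 2% dextran sodium sulfate (DSS), which damages the colon lining, for 3 days starting 1 week later, and were then killed, so all treated values come from a single early time. The treated mice are labelled as having colitis. The labels give no age or handling for untreated mice, do not say which part of Myd88 was removed, and name no cell type in which it was removed.

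DNA replication starts at origins, where the origin recognition complex, Cdc6 and Cdt1 load the ring-shaped helicase made of Mcm2 to Mcm7. At the start of S phase the kinase Cdc7 with Dbf4, and cyclin E with its kinase, turn that ring into a running helicase with Cdc45 and the GINS complex, and polymerases then copy both strands behind it. In the colon these genes are used mainly by the dividing cells of the lower crypt, and most of them are switched on late in G1 phase by E2F transcription factors, which bind a short element in their promoters.

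That element was searched for in the promoters of the listed genes, and the search did not use the array values. Whether the element has a part in the changes below was not tested. The letters TTTCCCGC, TTTCGCGC, TTTGCCGC and TTTGGCGC were looked for on both strands in the 250 bases before the annotated start, in RefSeq promoters of the mouse build GRCm38.p6, where 37 of the 44 genes had an entry. At least 1 of them was found before 8 of these 37 genes (21.6%), against 2.16% of all 27025 genes with an entry and 3.15% of the 14452 that also had a probe set. The stretches around the matches are shown 5′ to 3′ on the strand of the gene, with the matched letters in capitals. In Mcm5 and Mcm6 matches on opposite strands overlap, which gives the longer run of capitals, and Mcm6 has a further match nearer the start.
Orc1 (chr4:108579394-108579453, plus strand): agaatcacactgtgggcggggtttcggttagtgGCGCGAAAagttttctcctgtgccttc
Cdc6 (chr11:98907993-98908052, plus strand): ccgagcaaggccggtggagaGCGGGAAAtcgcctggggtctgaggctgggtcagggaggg
Mcm5 (chr8:75109336-75109395, plus strand): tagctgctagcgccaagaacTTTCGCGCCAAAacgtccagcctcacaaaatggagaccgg
Mcm6 (chr1:128359725-128359835, minus strand): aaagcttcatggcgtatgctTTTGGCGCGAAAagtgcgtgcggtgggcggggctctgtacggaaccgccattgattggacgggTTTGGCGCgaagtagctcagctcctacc
Mcm7 (chr5:138172009-138172068, minus strand): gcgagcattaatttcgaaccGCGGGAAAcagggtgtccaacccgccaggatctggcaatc
Pola1 (chrX:93632254-93632313, minus strand): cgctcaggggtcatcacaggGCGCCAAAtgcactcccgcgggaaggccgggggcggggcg
Rfc3 (chr5:151651209-151651268, minus strand): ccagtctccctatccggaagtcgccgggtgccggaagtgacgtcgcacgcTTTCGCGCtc
Uhrf1 (chr17:56304108-56304167, plus strand): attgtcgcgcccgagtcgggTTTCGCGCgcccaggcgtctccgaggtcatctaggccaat
The promoters of the 17 mitosis genes with an entry looked different in composition. CCAAT, the element bound by the factor NF-Y, lay in 88.2% of them, against 54.1% of the replication promoters. Its share was 37.5% of all promoters and 39.4% of those of genes with a probe set. TTTGAA, the core of an element found in promoters of genes switched on in G2 phase, lay in 41.2% of the mitosis promoters. It lay in 10.8% of the replication promoters (4 of 37 genes), 18.3% of all, and 14.1% of those of genes with a probe set. The E2F letters lay in 5.88% of the mitosis promoters. A match describes the letters in the window and is not evidence of binding.

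Several facts of the arrays bear on the values that follow. Signals are log2 units after quantile normalization, with a floor at 3.322 set before deposit. Within groups, pairs of arrays had correlations of 0.935 to 0.985 over all genes. Myd88 itself lay between 7.50 (repeat 9) and 8.31 in treated KO and between 8.26 and 8.61 in treated WT mice, so the treated genotypes overlapped. It lay between 7.53 and 7.81 in untreated KO and between 8.23 and 8.51 in untreated WT mice. In limma, the test used below, Myd88 was higher in treated than in untreated KO mice, by 0.33 ± 0.10 (adjusted p = 0.0225). The cause of this rise was not tested. The mean of 10 markers of colon epithelium lay between 11.0 and 11.9 on all arrays, so defining markers of the labelled tissue were present. The mean of 13 squamous epithelium markers was between 4.63 and 8.04 in treated KO mice and reached 11.5 in treated WT mice, against highs of 8.27 in untreated KO and 6.37 in untreated WT mice. The treated WT median was 7.54, with repeats 1 and 2 highest.

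Replication genes were lower after AOM and DSS in KO mice. The change of each gene was tested with limma across all genes, with Benjamini-Hochberg adjustment, and a gene was called at an adjusted p under 0.05. Of the 43 genes, 11 fell (25.6%) and 0 rose in treated KO against untreated KO mice, while 18.8% of all genes changed, 10.1% lower and 8.70% higher. Values under 0 were found for 39 of the 43, against 51.5% of all genes, and the median change was -0.34, against a median of 0 over all genes. The falls were modest, between 1.21-fold (Rpa1) and 1.79-fold (Prim1). In whole tissue, fewer dividing cells and less RNA per dividing cell cannot be told apart.

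**Figure D1:**
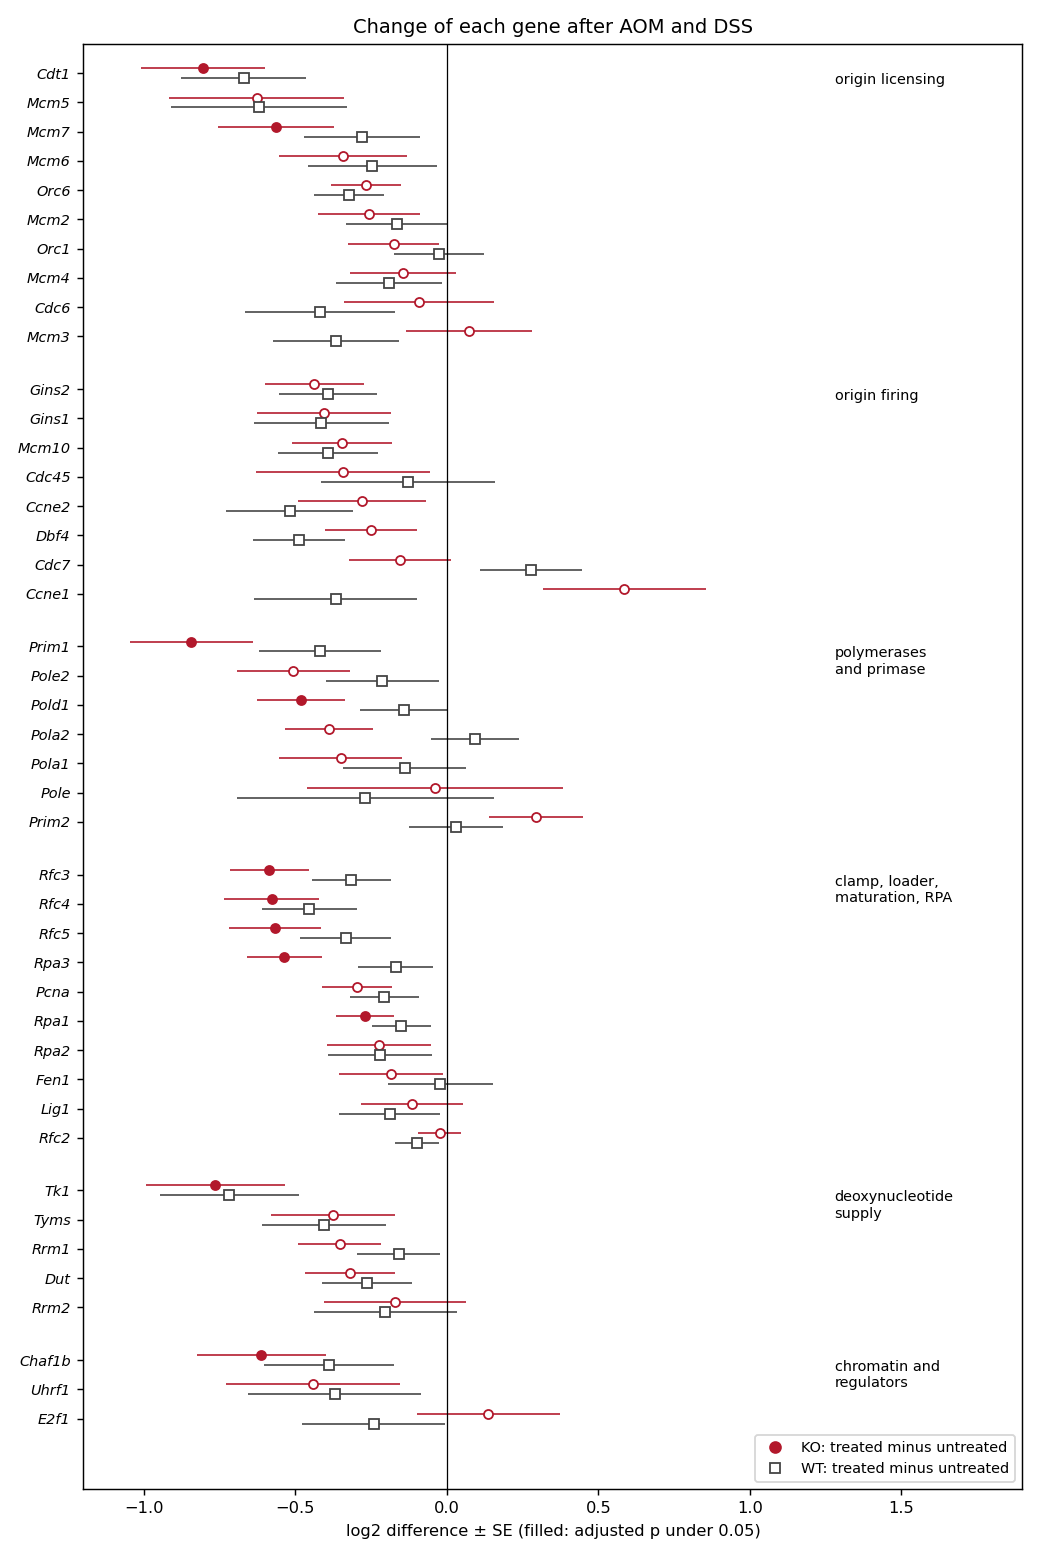
Change of each of the 43 genes after AOM and DSS as a log2 difference ± SE, with treated minus untreated KO mice in red circles and treated minus untreated WT mice in grey squares. Filled symbols passed at an adjusted p under 0.05, and all 11 of them are red and lie left of 0.

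Among the 10 genes of origin licensing, 2 fell. Cdt1, the factor that brings the Mcm ring to the origin, had signals between 7.35 and 9.04 (median 7.55) in treated KO mice, against 8.06 to 8.96 (median 8.57) in untreated KO mice. It fell by 0.80 ± 0.21 (1.75-fold, adjusted p = 0.00597 in limma). The ranges overlapped because of treated KO repeat 9, which at 9.04 was the highest of all KO arrays, while the next treated KO array was at 7.99. Mcm7, a subunit of the helicase ring, ranged between 7.67 and 9.31 (median 8.33) in treated KO mice and between 8.38 and 9.19 (median 9.02) in untreated KO mice. It fell by 0.57 ± 0.19 (1.48-fold, adjusted p = 0.038 in limma). The call was kept in 31 of 47 alternatives, and was lost when treated KO repeat 1, 3, 4, 5 or 6 or untreated KO repeat 1, 2, 4 or 5 was left out. Its other probe sets gave values between -0.40 and -0.11. Mcm5, another subunit, was between 7.17 and 8.87 (median 7.40) in treated KO mice, against 7.73 to 8.62 (median 8.23) in untreated KO mice. Its change of -0.63 ± 0.29 was larger than that of Mcm7 in size but did not pass (adjusted p = 0.132), and the treated KO arrays spanned the whole untreated KO range. The remaining members of the ring and the origin factors lay between -0.34 (Mcm6) and 0.07 (Mcm3). Orc1, the largest subunit of the origin recognition complex, depended on the probe set: the one used gave -0.18 ± 0.15 and the other -0.73 ± 0.26, and neither passed.

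Of the 8 genes that fire origins, 0 passed in limma, although 7 had values under 0, and their median was -0.31. The GINS subunit Gins2 lay between 5.46 and 6.75 (median 6.08) in treated KO mice, against 6.01 to 6.76 (median 6.57) in untreated KO mice, a difference of -0.44 ± 0.16 (adjusted p = 0.059). The other probe set of Gins2 gave -0.75 ± 0.22 (adjusted p = 0.0237 when every probe set was tested). Gins1, a further GINS subunit, was between 4.36 and 5.91 (median 4.78) in treated KO and between 4.86 and 5.73 (median 5.46) in untreated KO mice. Its difference was -0.41 ± 0.22, and the range of untreated KO mice lay inside that of treated KO mice. Ccne1, which encodes cyclin E1, stood on the other side of 0: treated KO mice had signals between 4.84 and 5.97 (median 5.53), against 3.32 to 5.76 (median 5.08) in untreated KO mice. The difference of 0.59 ± 0.27 did not pass (adjusted p = 0.132), and 1 untreated KO array was at the floor. Its relative Ccne2, cyclin E2, was at -0.28 ± 0.21.

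Polymerase genes gave the largest fall of the set. Prim1, the catalytic subunit of the primase that lays down the RNA primers, ranged between 6.03 and 7.60 (median 6.59) in treated KO mice and between 7.29 and 7.73 (median 7.49) in untreated KO mice. It fell by 0.84 ± 0.20 (1.79-fold, adjusted p = 0.00376 in limma), and the other probe set of the gene gave -0.98 ± 0.25. Only 1 treated KO array lay within the range of the untreated KO arrays. Prim2, the partner subunit of the primase, did not share this: its value was 0.30 ± 0.16 (adjusted p = 0.198). Pold1, the catalytic subunit of the lagging-strand polymerase delta, lay between 5.90 and 6.90 (median 6.40) in treated KO mice, against 6.55 to 7.41 (median 6.91) in untreated KO mice, and fell by 0.48 ± 0.15 (1.40-fold, adjusted p = 0.0198 in limma). The call was kept in 41 of 47 alternatives and was lost without untreated KO repeat 2, 4 or 5, and a second Pold1 probe set gave -0.11 ± 0.11. Pole2, an accessory subunit of the leading-strand polymerase epsilon, was between 5.48 and 7.15 (median 6.17) in treated KO and between 6.45 and 7.01 (median 6.73) in untreated KO mice, a difference of -0.51 ± 0.19 (adjusted p = 0.0559). Pola1 and Pola2, of the polymerase alpha that extends the primers, were at -0.35 ± 0.20 and -0.39 ± 0.14. Pole, the catalytic subunit of polymerase epsilon, was at the floor on 5 of 10 treated KO arrays and 3 of 6 untreated KO arrays, so its -0.04 ± 0.42 carries little information.

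Of 10 genes of the clamp, its loader, strand joining and the single-strand binding protein RPA, 5 fell, against 10.1% of all genes lower. All 5 were genes of the loader or of RPA, and they made up 5 of the 11 falls of the set. Rfc3 had signals between 6.17 and 7.41 (median 6.57) in treated KO mice, against 6.94 to 7.51 (median 7.27) in untreated KO mice, and fell by 0.59 ± 0.13 (1.50-fold, adjusted p = 0.00201 in limma). Rfc4 was between 6.31 and 7.57 (median 6.65) in treated KO and between 6.83 and 7.59 (median 7.27) in untreated KO mice, and fell by 0.58 ± 0.16 (adjusted p = 0.00904). Rfc5 was between 6.24 and 7.18 (median 6.55) in treated KO and between 6.78 and 7.67 (median 7.21) in untreated KO mice, and fell by 0.57 ± 0.15 (adjusted p = 0.00837). These are small subunits of the complex that opens the Pcna ring and sets it on DNA, and their changes were of nearly equal size. Rfc2, the remaining small subunit, was at -0.02 ± 0.07 (adjusted p = 0.888). Rpa3, the smallest RPA subunit, ranged between 7.58 and 8.76 (median 7.94) in treated KO mice and between 8.40 and 8.69 (median 8.56) in untreated KO mice. It fell by 0.54 ± 0.12 (1.45-fold, adjusted p = 0.00281 in limma), and this was the only call of the set kept in all 47 alternative fits. Rpa1, the largest RPA subunit, fell by 0.27 ± 0.10 (adjusted p = 0.0495), a call kept in 12 of 47 alternatives, and Rpa2 was at -0.22 ± 0.17. The clamp Pcna was at -0.30 ± 0.12 (adjusted p = 0.0707). Fen1, which trims Okazaki fragments, and Lig1, which joins them, were at -0.18 ± 0.17 and -0.12 ± 0.17.

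**Figure D2:**
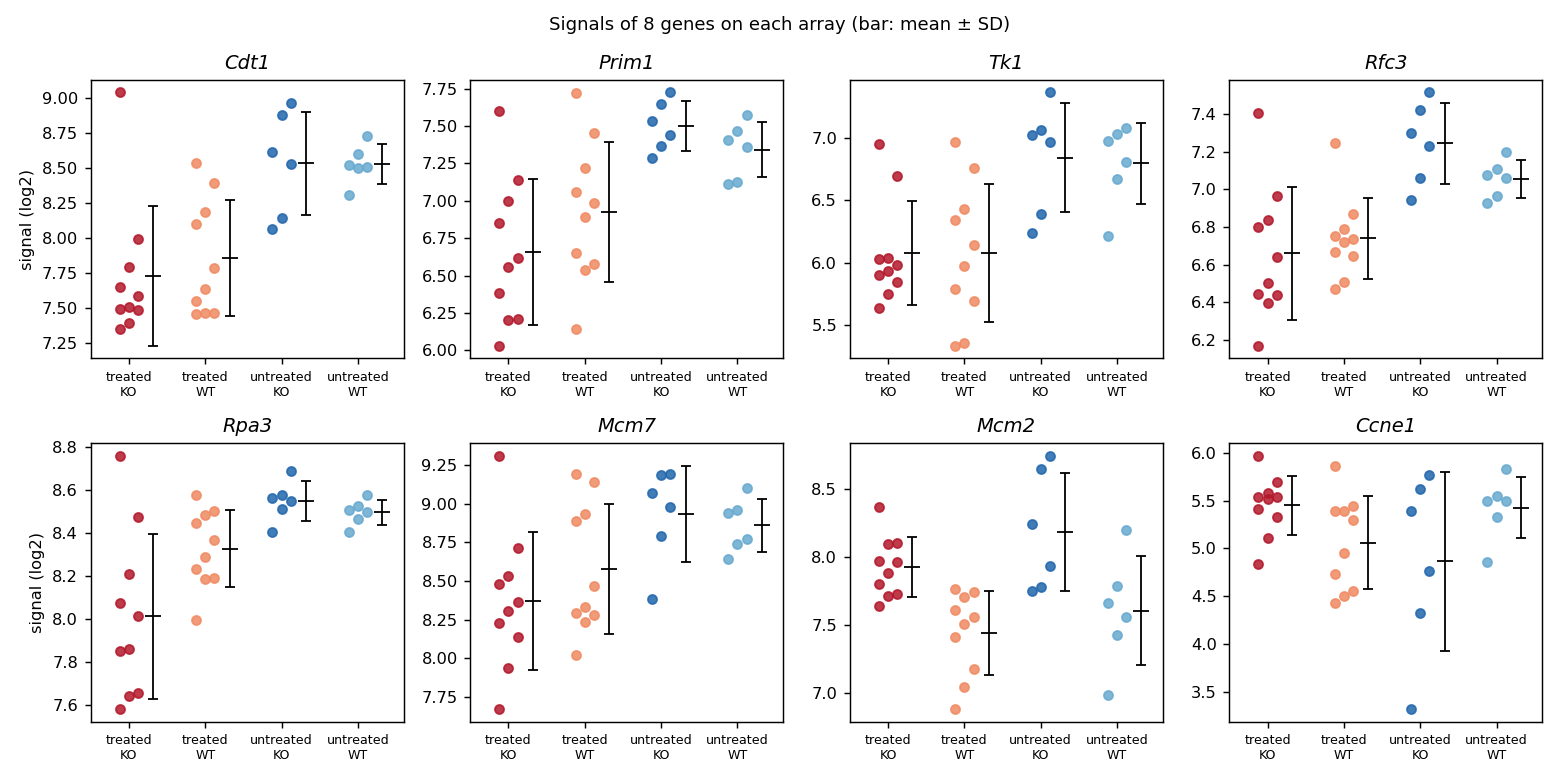
Log2 signal of 8 genes on each array, by group, with the mean ± SD drawn beside the points. Cdt1, Prim1, Tk1, Rfc3, Rpa3 and Mcm7 lie lower on most treated KO arrays than on untreated KO arrays, and Ccne1 has 1 untreated KO array at the floor of 3.32. Mcm2 lies higher on most treated KO than treated WT arrays, while the untreated groups overlap and their difference did not pass.

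Enzymes that supply deoxynucleotides were all under 0, and 1 of the 5 passed. Tk1, thymidine kinase of the salvage route, lay between 5.64 and 6.95 (median 5.96) in treated KO mice, against 6.23 to 7.36 (median 6.99) in untreated KO mice, and fell by 0.76 ± 0.23 (1.70-fold, adjusted p = 0.0192 in limma). Most treated KO arrays were under the lowest untreated KO array, and the call was kept in 43 of 47 alternatives but not without untreated KO repeat 5. Tyms, which makes thymidylate anew, had signals between 3.57 and 5.05 (median 4.42) in treated KO and between 4.51 and 4.85 (median 4.69) in untreated KO mice, a difference of -0.38 ± 0.20. Rrm1, the large subunit of ribonucleotide reductase, was between 7.19 and 7.87 (median 7.48) in treated KO and between 7.40 and 8.13 (median 7.98) in untreated KO mice, a difference of -0.35 ± 0.14 (adjusted p = 0.0701). The small subunit Rrm2 was at -0.17 ± 0.23, and Dut, which removes dUTP, at -0.32 ± 0.15.

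Of the 3 measured genes of chromatin copying and S-phase control, Chaf1b fell. This subunit of the complex that places histones on new DNA had signals between 4.78 and 6.62 (median 5.20) in treated KO mice, against 5.33 to 6.46 (median 5.90) in untreated KO mice. It fell by 0.61 ± 0.21 (1.53-fold, adjusted p = 0.0433 in limma), a call kept in 29 of 46 alternatives. Uhrf1, which passes DNA methylation on to the new strand, was between 5.16 and 7.04 (median 5.85) in treated KO and between 5.73 and 7.01 (median 6.28) in untreated KO mice, a difference of -0.44 ± 0.29. E2f1, a transcription factor of the E2F family, did not follow the set: treated KO mice had signals between 3.51 and 5.21 (median 4.65), against 4.00 to 4.96 (median 4.46) in untreated KO mice, a difference of 0.14 ± 0.24. Of the 8 genes with E2F letters before their start, 2 fell in KO mice, namely Mcm7 and Rfc3. This is a similar share to the 11 of all 43 genes that fell (25.6%).

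A single array and a tissue covariate moved these counts most. No gene of the set separated treated from untreated KO mice without overlap, which 0.973% of all genes did in the lower and 1.07% in the higher direction. The mean of the 43 genes was 7.22 on treated KO repeat 9, while the other treated KO arrays lay between 6.29 and 6.68. The same array had the highest crypt stem cell marker mean of its group, at 7.09, whereas its mitosis mean was 6.40 and inside the range of its group. Without this array 20 of the 43 genes fell, the 11 among them, against 12.5% of all genes, and the median was -0.39. The genes added were Orc6, Mcm5, Mcm10, Gins2, Pola2, Pole2, Pcna, Rrm1 and Dut. Leaving out an untreated KO array lowered the count to 7 without repeat 2, to 7 without repeat 4 and to 6 without repeat 5, the untreated KO arrays with the highest means of the set. Colon epithelium markers rose in the same comparison (7 of 10, median 0.27), where 8.70% of all genes rose. Their list means were 11.4 to 11.9 in treated KO and 11.2 to 11.5 in untreated KO mice, with 0 of the 10 at the floor throughout a group. With their mean as a covariate 1 gene remained lower (Rpa3), 1 was called higher (Prim2) and the median was -0.13. The part of the epithelium in the result was not tested beyond this fit.

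Markers of other cell types moved in the same comparison, where 8.70% of all genes were called higher and 10.1% lower. Of 9 enteroendocrine markers 8 rose (median 0.89), with list means of 8.04 to 9.23 in treated KO and 7.44 to 7.87 in untreated KO mice. Of 5 endothelium markers 3 rose (median 0.48), with means of 6.06 to 7.46 in treated KO and 6.00 to 6.80 in untreated KO mice. Of 6 plasma cell markers 2 fell and 1 rose (median -0.35), with means of 7.50 to 8.26 in treated KO and 8.30 to 8.98 in untreated KO mice. No marker of these 3 lists was at the floor throughout a KO group. Absorptive colonocytes had 3 of 10 markers higher. In the remaining lists of goblet cells, muscle, fibroblasts, squamous epithelium and blood cells, at most 1 marker was called. The part of these cells in the falls was not tested.

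**Figure D3:**
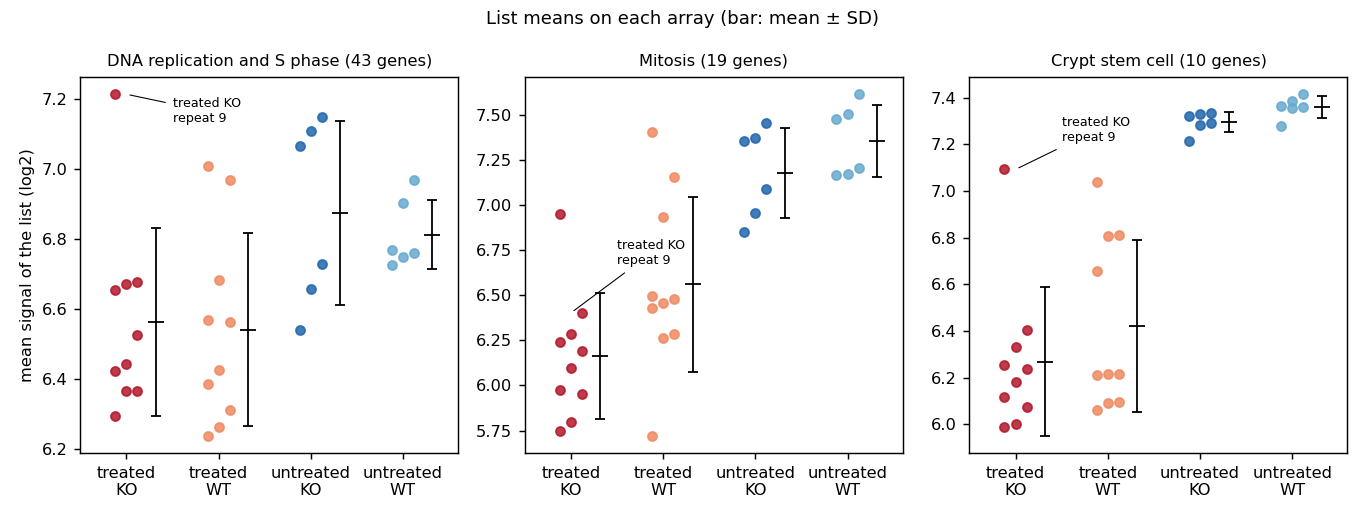
Mean log2 signal on each array of the 43 replication genes, of 19 mitosis genes and of 10 crypt stem cell markers, by group, with the mean ± SD beside the points. Treated KO repeat 9 lies above the rest of its group in the replication and crypt panels, at 7.22 and 7.09, but not in the mitosis panel, at 6.40.

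In WT mice the same genes lay mostly under 0 but none passed. With limma, 0 of the 43 were called in treated WT against untreated WT mice, where 1.84% of all genes were called and 1.24% were lower. At an unadjusted p under 0.05 there were 12, all lower, against 8.21% of all genes lower at that threshold. Values under 0 were found for 40 of the 43, against 52.3% of all genes, and the median was -0.26. Cdt1 lay between 7.46 and 8.54 (median 7.71) in treated WT mice, against 8.30 to 8.73 (median 8.51) in untreated WT mice, a difference of -0.67 ± 0.21 (adjusted p = 0.0898). Tk1 had the largest value, -0.72 ± 0.23 (adjusted p = 0.109), with signals between 5.33 and 6.96 (median 6.06) in treated WT and between 6.21 and 7.08 (median 6.89) in untreated WT mice. In both genes most treated WT arrays lay under the lowest untreated WT array.

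Other genes of the set in WT mice are given by the ends of each role. Among licensing genes Orc1 had the smallest value, -0.03 ± 0.15, and Mcm5 was at -0.62 ± 0.29. Among firing genes Ccne2 was at -0.52 ± 0.21 and Cdc45, a helicase subunit, at -0.13 ± 0.29, while Cdc7, the firing kinase, was at 0.28 ± 0.17. Prim1 was at -0.42 ± 0.20 and Prim2 at 0.03 ± 0.16. In the clamp and RPA group Rfc4 was at -0.45 ± 0.16 and Fen1 at -0.02 ± 0.17. Rrm1 had the smallest value among nucleotide enzymes, -0.16 ± 0.14. Chaf1b was at -0.39 ± 0.21 and E2f1 at -0.24 ± 0.24. No gene separated treated from untreated WT mice without overlap, which 0.896% of all genes did in the lower and 0.528% in the higher direction. Leaving out treated WT repeat 8 gave 2 lower calls (Tk1 and Dbf4, the activator of Cdc7). Leaving out treated WT repeat 1, or treated KO repeat 9, which enters through the common spread, gave 1 (Cdt1). Without treated WT repeats 1 and 2, the arrays with the highest squamous means, the count was also 1. The remaining treated WT arrays had squamous means up to 8.28, while untreated WT arrays reached 6.37, so this fit does not remove the squamous signal.

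The changes in the genotypes pointed the same way for most genes. Between them 37 of the 43 were under 0 in both genotypes, and 27 had the lower value in KO mice. Prim2 was above 0 in both. Ccne1, Mcm3 and E2f1 were under 0 in WT mice alone, and Cdc7 and Pola2 in KO mice alone. Over the 43 genes the changes correlated with r = 0.408, a description across genes that share arrays within each genotype. The difference of the changes (KO minus WT) was called for 0 of the 43 in limma, against 0.055% of all genes, and 3 had an unadjusted p under 0.05, against 11.7% of all genes. These were Ccne1 at 0.95 ± 0.38 (adjusted p = 0.315), Pola2 at -0.48 ± 0.20 (adjusted p = 0.349) and Rpa3 at -0.37 ± 0.17 (adjusted p = 0.412). The median difference was -0.07, and 27 were under 0, against 50% of all genes. The greater number of falls in KO mice is therefore not shown to be a difference between the genotypes. Mcm3 was at 0.44 ± 0.29, E2f1 at 0.38 ± 0.34 and Rrm1 at -0.20 ± 0.19, and the values closest to 0 were those of Rpa2, Gins1 and Mcm5, at -0.001, 0.008 and -0.008. Tyms, Uhrf1 and Pola1, the closest of their roles, were at 0.03, -0.07 and -0.21.

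**Figure D4:**
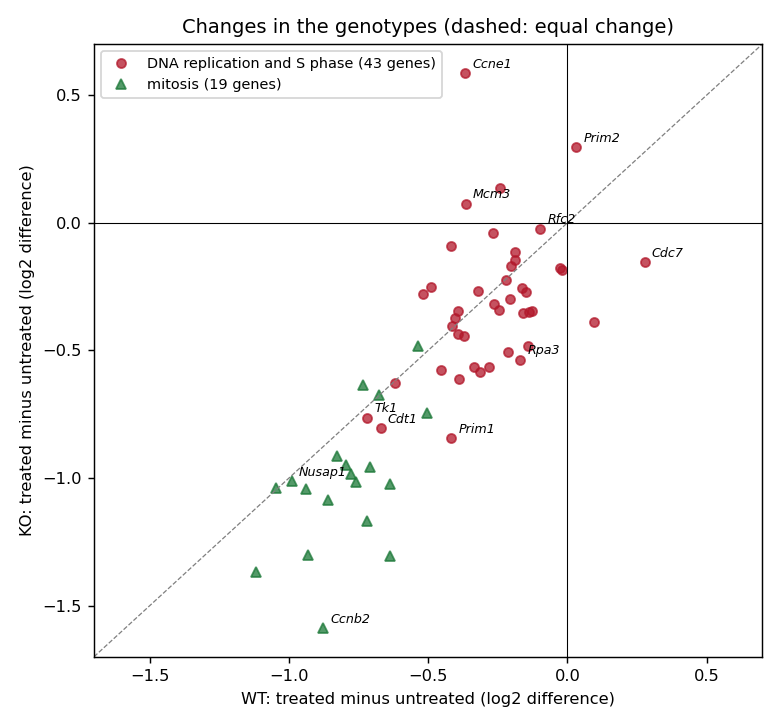
Treated minus untreated log2 difference in KO mice (vertical) against that in WT mice (horizontal) for the 43 replication genes (red circles) and 19 mitosis genes (green triangles), with equal change dashed. Below 0 on both axes lie 37 of the replication genes and all 19 mitosis genes.

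After treatment the genotypes differed in 1 gene of the set. Of the 43, only Mcm2 was called in treated KO against treated WT mice, and it was higher, where 12.8% of all genes were called and 6.24% were higher. Mcm2, a subunit of the helicase ring, lay between 7.64 and 8.37 (median 7.93) in treated KO mice, against 6.88 to 7.76 (median 7.53) in treated WT mice. The difference was 0.49 ± 0.15 (1.40-fold, adjusted p = 0.0246 in limma), and only the lower treated KO arrays reached into the range of treated WT mice. Untreated mice showed a value of the same direction that did not pass: signals between 7.75 and 8.75 (median 8.09) in untreated KO mice and between 6.99 and 8.20 (median 7.61) in untreated WT mice gave 0.58 ± 0.19 (adjusted p = 0.448). The other probe set of Mcm2 gave 0.37 ± 0.20 in treated mice (adjusted p = 0.303).

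The Mcm2 call did not hold in 7 of 47 alternatives, those that adjust for other tissue among them. With squamous and skeletal muscle means as covariates the Mcm2 difference was 0.43 (adjusted p = 0.0936). Dropping treated WT repeats 1 and 2 gave 0.47 (adjusted p = 0.0586). The count stayed at 1 in both fits because Mcm3 was called higher instead, at 0.61 in each (adjusted p = 0.0451 with the covariates and 0.0301 without these arrays). Leaving out treated WT repeat 10 or treated KO repeat 2 also lost the Mcm2 call and made the count 0. The count was 2 without treated WT repeat 1 or 8 (Mcm3 joined, higher), and without treated WT repeat 7 or treated KO repeat 1, 7 or 9 (Rpa3 joined, lower). With the probe sets of a gene averaged, or with the epithelium mean as a covariate, the count was 0. The other ring subunits did not pass: Mcm3 was at 0.49 ± 0.18 (adjusted p = 0.0693), Mcm7 at -0.21 ± 0.17 and Mcm4 at 0.06 ± 0.15. Values over the 43 genes lay on both sides of 0, with 21 under 0, against 47.6% of all genes, and a median of 0.002. Rpa3 was at -0.31 ± 0.11 (adjusted p = 0.051). Ccne1 was at 0.39 ± 0.23, E2f1 at 0.41 ± 0.20, Pola1 at -0.35 ± 0.18 and Rrm2 at 0.21 ± 0.20. The smallest values of the other roles were those of Tk1 (-0.001), Cdc7 (0.002), Pcna (-0.003), Chaf1b (-0.02) and Pole (-0.07). The mean of the 43 genes was 6.56 ± 0.27 (SD, n = 10) in treated KO and 6.54 ± 0.28 (SD, n = 10) in treated WT mice.

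Without treatment limma called 0 of the 43 between the genotypes, where 0.115% of all genes were called. Unadjusted p was under 0.05 for 2 genes, Mcm2 and Cdc7 (0.43 ± 0.19), both higher in KO mice, against 7.17% of all genes. The median was 0.06, and 10 of the 43 were under 0, against 47.7% of all genes. Ccne1 had the most negative value, -0.56 ± 0.30, and its untreated KO group held the array at the floor. Uhrf1 was at 0.33 ± 0.32, Pole at -0.30 ± 0.47, Dut at 0.19 ± 0.17 and Rfc3 at 0.19 ± 0.14. The smallest values per role were those of Cdc6 (0.003), Lig1 (0.01), Mcm10 (-0.02), E2f1 (0.03), Tk1 (0.04) and Pold1 (0.10). The mean of the 43 genes was 6.88 ± 0.26 (SD, n = 6) in untreated KO and 6.81 ± 0.10 (SD, n = 6) in untreated WT mice, so the untreated KO arrays spread more widely.

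Genes that work beside the set changed in part with it. These lists, like those of mitosis and of cell type markers, were chosen with earlier results of these data known. Of 23 further parts of the replication machinery, 6 fell (26.1%) and 0 rose in treated KO against untreated KO mice, with a median of -0.16. Over all genes 10.1% were lower and 8.70% higher. Pold2, the partner subunit of Pold1, fell by 0.74 ± 0.16 (adjusted p = 0.00158 in limma), and Rnaseh2c and Rnaseh2a, subunits of the enzyme that removes ribonucleotides from DNA, fell by 0.61 ± 0.11 and 0.56 ± 0.11. In WT mice 1 of the 23 fell, where 1.24% of all genes did. This was Donson, a factor that helps to assemble the helicase. It fell by 0.55 ± 0.15 (adjusted p = 0.0429 in limma) and parted treated from untreated WT mice without overlap, as 0.896% of all genes did in that direction. Between the treated genotypes 2 of the 23 were called, where 12.8% of all genes were called. Pold3, a further polymerase delta subunit, was higher in KO mice by 0.28 ± 0.09 (adjusted p = 0.0276 in limma). Orc5 was lower, at -0.29 ± 0.10 (adjusted p = 0.0439).

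Of 21 other S-phase and E2F target genes, 4 fell and 1 rose in KO mice. Cdca7, a partner of the chromatin remodeller Hells, fell by 1.26 ± 0.27 (adjusted p = 0.0014 in limma), and Ccna2, cyclin A2, fell by 0.83 ± 0.20 (adjusted p = 0.00427). E2f2, an activating E2F factor, rose: its signals lay between 6.00 and 7.64 (median 6.49) in treated KO mice and between 4.50 and 5.59 (median 5.24) in untreated KO mice, with no overlap. Of all genes 1.07% parted these groups in the higher direction. The rise was 1.55 ± 0.24 (2.92-fold, adjusted p = 6.9e-05), and E2f2 was also higher in treated KO than in treated WT mice, by 1.18 ± 0.21 (adjusted p = 0.000497), where treated WT signals lay between 5.18 and 5.91. In WT mice 1 of the 21 was called, where 1.84% of all genes were called. This was Cdca7, which fell by 1.11 ± 0.27 (adjusted p = 0.0251 in limma), while E2f2 was at 0.80 ± 0.24 (adjusted p = 0.0802). Between the treated genotypes 3 of the 21 were called, E2f2 among them, where 12.8% of all genes were called. Timeless, of the fork protection complex, was higher in treated KO than in treated WT mice by 0.54 ± 0.16. Rbl1, a pocket protein that holds E2F factors in check, was lower, at -0.28 ± 0.08.

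Among 14 genes of G1 phase and its brakes, 3 fell (21.4%) and 1 rose in KO mice, against 10.1% of all genes lower and 8.70% higher. Cdk4 and Cdk6, the kinases of the D cyclins, fell by 0.62 ± 0.14 (adjusted p = 0.00171 in limma) and 0.42 ± 0.12 (adjusted p = 0.0169), and E2f5, a repressive E2F factor, rose by 0.39 ± 0.11 (adjusted p = 0.0149). None of the 14 was called in WT mice, where 1.84% of all genes were called. Between the treated genotypes 1 of the 14 was called, where 12.8% of all genes were called. This was Cdkn1c, a kinase inhibitor, higher in KO mice by 0.53 ± 0.17 (adjusted p = 0.0378 in limma).

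Mitosis genes fell in both genotypes. Of 19, 18 fell in KO mice (94.7%, against 10.1% of all genes lower), and 11 fell in WT mice (57.9%, against 1.24%). The medians were -1.01 in KO and -0.78 in WT mice, against -0.34 and -0.26 over the replication genes. This difference between the lists was not tested. Ccnb2, cyclin B2, had signals between 6.48 and 7.67 (median 6.82) in treated KO mice, against 8.20 to 8.82 (median 8.48) in untreated KO mice, and fell by 1.59 ± 0.20 (3.01-fold, adjusted p = 5.3e-06 in limma). Ube2c, which helps to break down cyclin B, fell by 1.37 ± 0.26 in KO and by 1.12 ± 0.26 in WT mice, and Bub1b, of the spindle checkpoint, fell by 1.31 ± 0.28 in KO mice. In WT mice Cdk1, the kinase of cyclin B, fell by 1.05 ± 0.24 and Nusap1, a spindle protein, by 0.99 ± 0.20. Between the treated genotypes all 19 had values under 0 (median -0.37), beside 21 of the 43 replication genes and 47.6% of all genes. Of the 19, 3 were called (15.8%), where 12.8% of all genes were called. They were Ccnb2 at -0.77 ± 0.17, Mki67, the marker of dividing cells, at -0.71 ± 0.16, and Cdc20, an activator of the anaphase complex, at -0.56 ± 0.19.

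Crypt stem cell markers moved with the set. Of 10 measured, 8 fell in KO mice (median -0.73) and 5 fell in WT mice (median -0.79). Over all genes 10.1% fell in KO and 1.24% in WT mice. Their mean lay between 5.99 and 7.09 in treated KO, between 6.06 and 7.04 in treated WT, between 7.21 and 7.33 in untreated KO and between 7.28 and 7.41 in untreated WT mice, so each treated group lay below its untreated group. None of the 10 was at the floor throughout a group. The part of these cells in the falls of the replication genes was not tested.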

How the data were processed

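RNA of distal colon from 32 mice was measured on 1 array each. The authors deposited log2 signals for 45101 probe sets, 64 of them controls; the summarising software is not given in the sources used here. The values show that signals under 10 had been raised to 10 (3.322 on the log2 scale), a level shared by 18.7% to 23.9% of each array's probe sets. The log2 signals were quantile normalized because array medians ran from 5.17 to 5.53. The platform annotation gives a single gene symbol to 34958 probe sets, several to 932 and no symbol to 9211. For each of 18193 genes the brightest such probe set on average was used. Group means over all arrays were fitted with limma 3.58.1 in R 4.3.3 (28 residual and 1.1 prior degrees of freedom), two-sided, adjusted by Benjamini-Hochberg over all genes. The number of arrays limits the precision. Errors of differences are standard errors. The labels call the arrays biological repeats, and repeat numbers were tested as pairs. Deviations of same-numbered arrays correlated between -0.21 and 0.352 over 5000 genes, so they were not used as pairs. The Xist signal was above 7 on 5 of 10 arrays of each treated group and on 3 of 6 of each untreated group. Same-numbered arrays of the genotypes lay on the same side of 7, both among treated and among untreated mice. Treated and untreated arrays of equal number did not all match. At repeat 4 the Xist signal was 12.21 in treated WT and 11.55 in treated KO, but 5.275 in untreated WT and 4.602 in untreated KO mice.

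Named were every called gene of the set, the largest and smallest changes per role, and up to 3 called genes per neighbouring list. Arrays are described for the 3 largest changes per role in KO mice and for genes called between genotypes. The genes and lists were chosen with earlier results of these data known. Alternatives were median centring, the values as deposited, a filter at the 40th percentile of mean signal, averaged or separate probe sets, array weights, a fit of the compared groups alone, blocks of equal repeat number, a trended robust prior, a threshold of 0.01, covariates (3'/5' control difference, squamous and skeletal muscle markers, colon epithelium markers, Xist), leaving out treated WT repeats 1 and 2, and leaving out each array. The fit was tested on simulated data.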

Additional observations from a re-analysis of the deposited data

Results flagged for a closer look

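Single arrays stood apart from their group by Dixon's test in 10 of 172 groups examined (9 genes), and chance flags about 1 in 20 groups. Treated KO repeat 9 was the highest array of its group for Cdt1 (9.04, next array 7.99), Mcm5 (8.87, next 7.94), Rfc4 (7.57, next 6.98), Dut (7.74, next 7.18) and Chaf1b (6.62, next 5.58). Orc1 was highest on untreated KO repeat 2, at 7.24, where the next array was at 6.60. Rfc3 was highest on treated WT repeat 8, at 7.25, with the next at 6.87. Mcm10, which helps to activate the helicase, was lowest on treated WT repeat 5, at 4.73, with the next at 5.27. Cdc45 was lowest on treated KO repeat 5, at the floor of 3.32 (next 5.01), and on treated WT repeat 7, at 4.76 (next 5.39).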

How the results depend on the processing

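Of 10022 values of single genes under alternative fits, 349 had the opposite sign to the value with all arrays. None of these passed the threshold in either fit (lowest adjusted p 0.434), so 0 called changes reversed. With all arrays 11 genes of the set were called in KO mice after treatment. The count was 6 with only the compared groups fitted, 6 at an adjusted p under 0.01 and 2 with the colon epithelium mean as a covariate, and it lay between 6 and 20 when single arrays were left out. With the repeat number as a replicate block it was 15. In WT mice the count of 0 became 2 with only the compared groups, 1 with the replicate block, 7 with array weights and 1 without treated WT repeats 1 and 2, and lay between 0 and 2 with single arrays left out. Between the treated genotypes the count of 1 became 2 with the values as deposited, 3 without genes under the 40th percentile, 0 with averaged probe sets, 2 with the replicate block, 2 with array weights, 2 with a trended robust prior, 0 at an adjusted p under 0.01, 2 with the 3'/5' covariate and 0 with the epithelium covariate, and lay between 0 and 2 with single arrays left out. It stayed at 0 between untreated genotypes and for the difference of the changes in every alternative run. The cause of these shifts was not tested. Dim genes such as Pole, at the floor on many arrays, are limited by that floor.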

Other observations

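Of the 29 further probe sets, in 24 genes of the set, that were never at the floor, 24 had the same sign as the probe set used when treated and untreated KO mice were compared.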
